A study of Homo sapiens with 4 samples.

Results

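Described here are the intergenic long noncoding RNAs and the small nucleolar RNA (snoRNA) hosts of PANC-1 pancreatic adenocarcinoma cells and of the H2A.Z knockdown clone derived from them. Members are every gene whose table symbol is LINC or SNHG followed by digits, together with NEAT1, GAS5, H19 and MIR22HG, if at least 1 of its transcripts carried values. This gave 272 of 15220 genes, of which 251 were LINC genes, 17 were SNHG genes and 4 were the genes named singly. The rule looked at names alone and not at any measured value. MALAT1, which the rule also names, is not analysed here.

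The study compared 2 RNA-seq libraries of wild-type PANC-1 with 2 libraries of PZT-2. PZT-2 is a single stable clone in which 2 lentiviral shRNAs, against H2A.Z.1 and against the H2A.Z.2 pair, reduce all 3 H2A.Z isoforms. Both lines were grown in DMEM with serum, and messenger RNA was enriched before stranded, paired sequencing. Because PZT-2 is 1 clone and no scrambled-shRNA library is analysed here, the knockdown, the clone and the viral insertion cannot be told apart, and p-values measure only the spread between these libraries.

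Library totals ran from 12861388 to 15717448 estimated counts, and the members held 0.169% of them. A normalized count is an estimated count adjusted for the TMM-corrected depth of its library, on the scale of the average library, and it is not corrected for gene length. H2AFZ, the gene of H2A.Z.1, had 6386 and 6031 normalized counts in PANC-1 replicates 1 and 2 against 2211 and 2258 in PZT-2, which is -1.47 as a log2 fold change. H2AFV, the gene of both H2A.Z.2 isoforms, changed by -0.36. Among markers of carcinoma epithelium, KRT8, KRT18, KRT19 and CDH1 were called lower in PZT-2, and CDH1 went from 132 to 9.39 mean normalized counts. The mesenchymal markers VIM (-0.48) and CDH2 (-1.84) and the fibroblast marker COL1A1 (-1.75) were called lower as well, so the fall was not limited to epithelial markers. The acinar and endocrine markers had no value among the genes analysed, and the part of the marker changes in the values below was not tested.

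Long noncoding RNAs (lncRNAs) are transcripts that carry no long open reading frame, and LINC symbols are given to those that lie between coding genes. snoRNA host genes are spliced RNAs whose introns release snoRNAs, the guides for chemical modification of ribosomal RNA, while the spliced exons are often left as a short-lived cytoplasmic RNA. Many hosts begin with a terminal oligopyrimidine tract, the start that ribosomal protein messengers share. H19 and MIR22HG instead carry a microRNA hairpin in an exon, H19 is an imprinted RNA expressed from the maternal copy beside IGF2, and NEAT1 forms the core of nuclear paraspeckles. Poly(A)-selected libraries measure the host transcripts and neither the snoRNAs nor the mature microRNAs.

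The starts of 5 hosts are printed to show the pyrimidine run that was found near the start of most SNHG genes. Each line holds 30 bases of RefSeq sequence on GRCh38.p14, from 10 bases before the annotated start to 20 from it onward. In capitals is the longest pyrimidine run counted from a C:
SNHG5, chr6:85678714-85678743, minus strand: gcacttcggtCTTTTacgtcggccttcgcg
SNHG16, chr17:76557754-76557783, plus strand: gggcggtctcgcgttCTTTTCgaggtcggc
SNHG19, chr16:2155339-2155368, minus strand: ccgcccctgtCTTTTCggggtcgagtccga
SNHG4, chr5:139274091-139274120, plus strand: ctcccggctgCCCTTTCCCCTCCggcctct
SNHG12, chr1:28581854-28581883, minus strand: gcttcagcgCCCTTTCTCCCCgccgcattc

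A run was at least 5 pyrimidines (C or T) in a row, counted from a C within 10 bases of the annotated start. Pyrimidines directly before that C were left out, such as the T in the SNHG5, SNHG16 and SNHG19 lines. The definition was set after these windows had been seen, and where several runs qualified the longest is marked. Such a run was present at 10 of the 15 snoRNA hosts with a promoter sequence (66.7%), against 57 of 190 tested members (30.0%) and 32.3% of 27305 promoters. GAS5, SNHG1, SNHG3, SNHG20 and SNHG21 had none by this definition. Each gene was read at a single annotated start. The T-rich runs in the SNHG1 window held too few pyrimidines from a C onward to count. Other starts of these hosts were not searched. The letters ACGTG, core of the hypoxia response element and searched on both strands of the 300 bases around the start, occurred in 3 of the 15 hosts, in 24.7% of the tested members and in 21.6% of all promoters. These are descriptions of letters and not of bound factors.

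The microRNAs of H19 and MIR22HG are shown because their host transcripts moved in opposite directions. The seed, bases 2 to 8, is in capitals, the letters are those of RefSeq, and positions are on the minus strand of GRCh38.p14:
hsa-miR-675-5p (H19), chr11:1996800-1996822: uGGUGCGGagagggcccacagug
hsa-miR-675-3p (H19), chr11:1996768-1996787: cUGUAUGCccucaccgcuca
hsa-miR-22-5p (MIR22HG), chr17:1713952-1713973: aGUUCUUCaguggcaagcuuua
hsa-miR-22-3p (MIR22HG), chr17:1713914-1713935: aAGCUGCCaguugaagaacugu
The 4 seeds differ from each other, so none of these arms shares a seed family.

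The comparison of PZT-2 with PANC-1 asks which of these RNAs changed when H2A.Z was reduced. Of the 272 members, 265 passed the filter of at least 5 counts in at least 2 libraries, and 17 were called by the edgeR quasi-likelihood test at a Benjamini-Hochberg adjusted p under 0.05. The background over all 15100 genes tested was 28.4% called. GAS5, SNHG7, SNHG14, SNHG15, MIR22HG and 5 LINC genes rose, 10 members at a background of 14.7%, and H19 and 6 LINC genes fell, 7 members at a background of 13.7%. The median log2 fold change of the tested members was 0.10, beside 0.00 for all genes. Another 21 members had an unadjusted p under 0.05, for 38 in all.

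The share of members called was lowest where their level was lowest. Of the tested members, 172 had a mean normalized count under 20, and 0 of these were called by edgeR, of which 10 had an unadjusted p under 0.05, while the background at that level was 4.98%. Between 20 and 100 normalized counts 3 of 46 were called, against 18.2%. Between 100 and 500 the share was 9 of 34 against 29.2%, and from 500 upward it was 5 of 13 against 43.2%. For comparison, 32 of 517 tested antisense lncRNA genes were called. The differences between these shares were not tested.

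**Figure D1:**
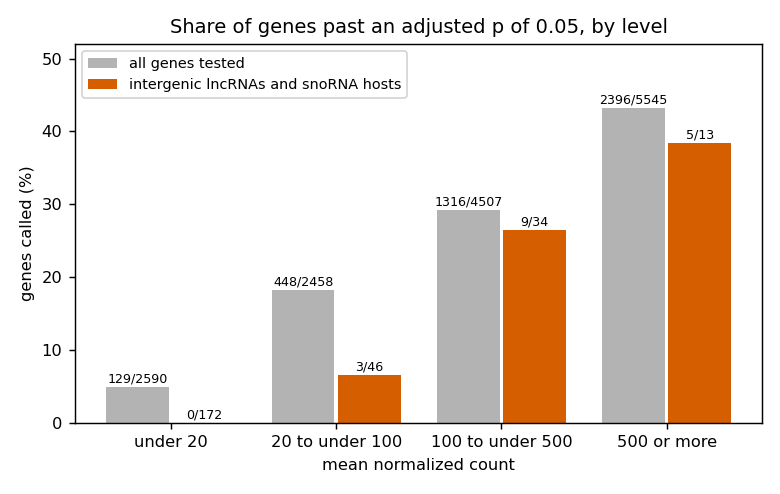
Percent of genes past an adjusted p of 0.05 in edgeR, in 4 ranges of mean normalized count, for all genes tested (grey bars) and for the intergenic lncRNAs and snoRNA hosts (orange bars), with called over tested genes above each bar. The orange bar is at 0 under 20 normalized counts and at 9 of 34 and 5 of 13 genes in the upper ranges, each below its grey bar.

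Filtering also shaped what could be seen. All 17 calls came from the 181 members with at least 5 counts in each of the 4 libraries, of which 96 were higher and 85 lower. Another 43 members reached 5 counts in both libraries of PZT-2 alone and 21 in both libraries of PANC-1 alone, so that their direction was largely set by the filter, and none of them was called by edgeR (7 and 1 had an unadjusted p under 0.05). The widest fitted change, 2.99 for LINC01534, rests on a mean normalized count of 5.04 and had an adjusted p of 0.0640 in edgeR. LINC01534 passed with limma-trend on log2(TPM + 1) and without PANC-1 replicate 1.

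The libraries of the 2 lines did not overlap for 128 of the 265 tested members, 69 with the higher values in PZT-2 and 59 with the lower. The background was 66.3% of all genes tested, 33.3% upward and 32.9% downward.

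**Figure D2:**
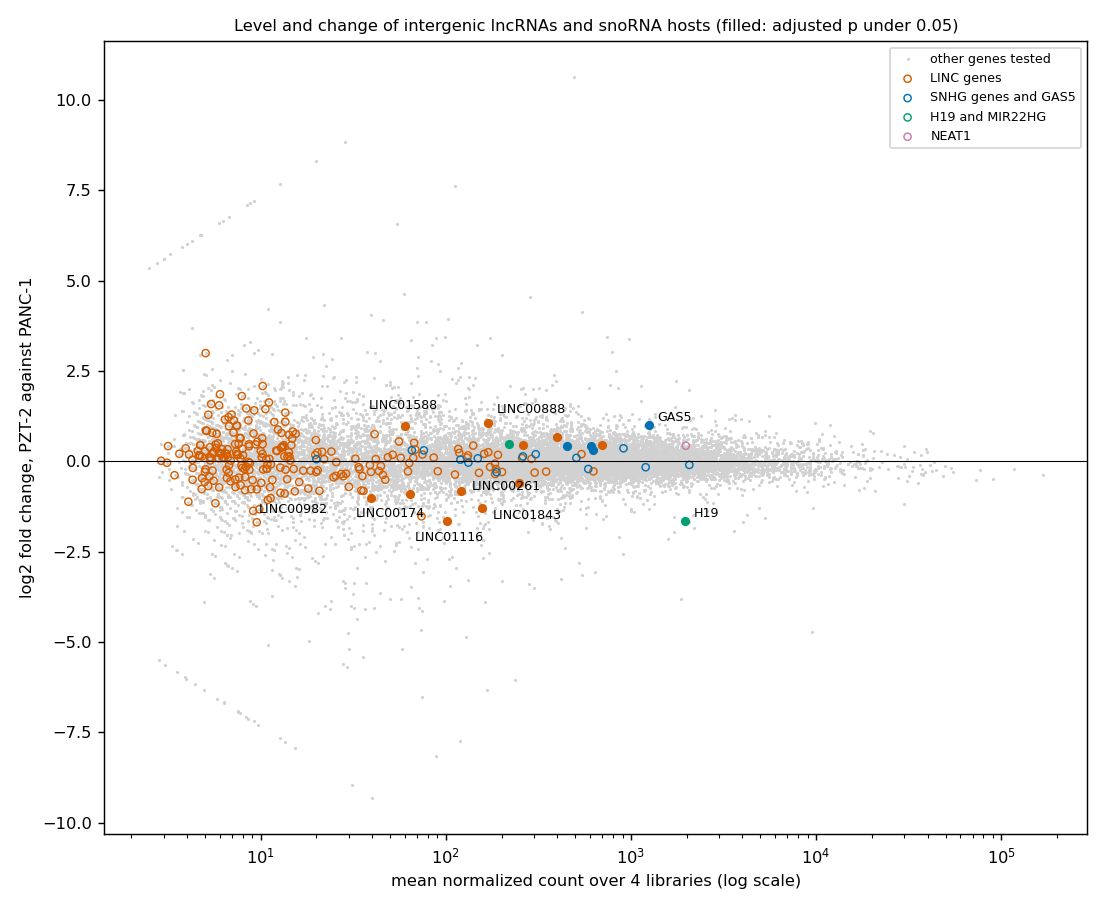
Log2 fold change of PZT-2 against PANC-1 for each gene tested, against its mean normalized count over the 4 libraries on a log axis, with members colored by group and filled when called. Most LINC genes lie under 20 normalized counts, and GAS5 at 1.01 and H19 at -1.64 stand at the abundant end.

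The 18 snoRNA hosts are GAS5 and the SNHG genes, grouped by symbol. An annotated snoRNA gene lies within the span of 16 of them, and SNHG20 and SNHG21 hold none. Outside this group 5 LINC members, LINC00888 included, hold at least 1. Among the 18 hosts, 4 rose and 0 fell in edgeR, while 6 had an unadjusted p under 0.05 and the other 14 did not pass. The background was 14.7% higher and 13.7% lower over all genes, and 29.2% and 43.2% called in the 2 upper ranges of level, in which most hosts lie. Their median log2 fold change was 0.12, within a range of -0.30 to 1.01. Summed over hosts, the level in TPM, which corrects for transcript length and library depth, was 1436 and 1418 in PANC-1 and 1753 and 1792 in PZT-2. GAS5 carried most of this difference, since without it the sum was 1205 and 1212 against 1306 and 1320. The sum over the 251 LINC genes lay between 710.0 and 728 TPM in the 4 libraries. Hosts were few and abundant, and their median mean normalized count was 379, beside 10.2 for the tested LINC genes.

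GAS5, a host of 11 annotated snoRNA genes whose spliced RNA is known to accumulate when growth stops, had 889 and 763 normalized counts in PANC-1 and 1614 and 1715 in PZT-2. Both PZT-2 libraries were far above both PANC-1 libraries, and the log2 fold change was 1.01 ± 0.0873 (SE, n = 2 libraries per line, edgeR adjusted p = 0.000749). On the TPM scale its level was 219 ± 17.6 in PANC-1 and 460 ± 17.7 in PZT-2 (SD, n = 2). Of its 10 transcripts with values, the most abundant pair, NR_002578 and NR_152523, were both higher in PZT-2, from 316 and 217 to 648 and 722 and from 340 and 287 to 656 and 612 normalized counts. The overlapping coding gene ZBTB37 had a value of -0.30 and was not called.

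SNHG14, SNHG15 and SNHG7 rose by less. SNHG14, a very long transcript of the imprinted Prader-Willi region on chromosome 15 whose span holds 84 annotated snoRNA genes, had 538 and 507 normalized counts in PANC-1 and 737 and 663 in PZT-2, which gave a change of 0.42 ± 0.0864 (edgeR adjusted p = 0.0134). SNHG15, host of SNORA9, had 396 and 382 against 500.0 and 534, a change of 0.41 ± 0.0845 (edgeR adjusted p = 0.0139). SNHG7, host of SNORA17A and SNORA17B, had 559 and 544 against 692 and 689, a change of 0.33 ± 0.0714 (edgeR adjusted p = 0.0174).

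The calls of SNHG14, SNHG15 and SNHG7 were less firm than that of GAS5. Over 14 alternative analyses their adjusted p ran from 0.00732 to 0.216, from 0.00716 to 0.252 and from 0.00589 to 0.0920, and they stayed under 0.05 in 9, 12 and 10 of the 14. SNHG14 lost the call without PZT-2 replicate 1, SNHG15 without PZT-2 replicate 2 and SNHG7 without either of these. SNHG14 overlaps SNRPN (0.27, adjusted p = 0.0300 in edgeR) and UBE3A (0.37, adjusted p = 0.122), and chromosome 15 as a whole had a median log2 fold change of 0.24 with 144 genes called higher and 19 lower. Its own change without NR_146177, a transcript assigned to it by accession, did not pass. SNHG7 overlaps FAM69B (DIPK1B), which rose by 0.77 on the log2 scale. The part of these neighbours in the values of the hosts was not tested.

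SNHG1, host of a dense cluster of snoRNAs, missed the threshold. It had 706 and 886 normalized counts in PANC-1 against 1002 and 1048 in PZT-2, so the libraries did not overlap, with a change of 0.36 ± 0.111 (edgeR adjusted p = 0.0536, from 0.000935 to 0.209 over the 14 alternatives). SNHG1 passed in 5 of them, among them the analysis without PANC-1 replicate 2.

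The other 13 hosts had log2 fold changes between -0.30 and 0.31. SNHG5, by TPM the most abundant member, had 1356 and 1181 normalized counts in PANC-1 and 1147 and 1115 in PZT-2, a change of -0.16 ± 0.0817. SNHG16 had 2161 and 2113 against 2030 and 1958, a change of -0.10 ± 0.0572. Both hosts, whose pyrimidine runs are printed above, had lower values in both PZT-2 libraries and did not pass the test (edgeR adjusted p = 0.188 and 0.249). SNHG20 (-0.30), SNHG3 (-0.21), SNHG12 (0.20) and SNHG17 (0.13) had libraries that did not overlap and adjusted p of at least 0.111, and SNHG9 at 0.31 had an adjusted p of 0.310. SNHG17 depended on which transcripts were counted, since only NR_152755 carries its symbol in the deposited table. With table symbols alone its change was 1.01 and passed (edgeR adjusted p = 0.0492). SNHG6, SNHG8, SNHG4, SNHG11, SNHG19 and SNHG21 overlapped between the lines, and SNHG21, at 15.1 to 25.7 normalized counts, was the least abundant host. Within SNHG12, the transcript NR_024127 made up 3.13% and 7.83% of its counts in PANC-1 and 19.5% and 18.6% in PZT-2. Such shares are estimates and were not tested. They can differ widely between replicates, as NR_146381 of SNHG12 took 13.0% and 0.0154% in PANC-1 replicates 1 and 2.

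**Figure D3:**
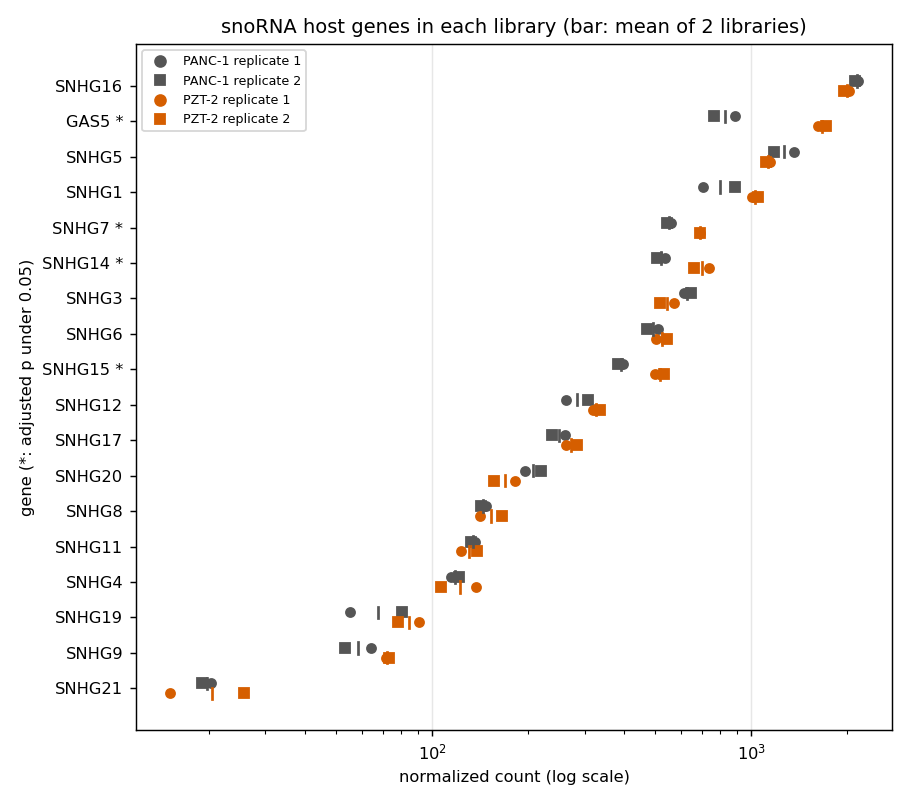
Normalized counts (log axis) of the 18 snoRNA hosts in each of the 4 libraries, grey for PANC-1 and orange for PZT-2, with bars at the mean of 2 libraries and an asterisk for an adjusted p under 0.05. GAS5 shows the widest gap between the lines, from 763 and 889 to 1614 and 1715, and SNHG16 and SNHG5 lie at a like level in both.

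By TPM averaged over the 4 libraries, the order of the hosts opened with SNHG5 (415), GAS5 (339), SNHG1 (119), SNHG6 (118) and SNHG16 (112). In PANC-1 the libraries of SNHG1, SNHG6 and SNHG16 overlapped, with SNHG1 at 88.4 and 116 TPM. In PZT-2 the libraries of SNHG1 (136 ± 6.70), SNHG6 (124 ± 6.66) and SNHG16 (110 ± 3.61) did not overlap (SD, n = 2). In PANC-1 SNHG5 at 429 ± 28.3 TPM stood above GAS5 at 219 ± 17.6, while in PZT-2 GAS5 at 460 ± 17.7 stood above SNHG5 at 402 ± 8.18 (SD, n = 2).

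H19 was the member that fell the most among those with over 500 normalized counts. It had 3135 and 2789 normalized counts in PANC-1 and 1057 and 839 in PZT-2, with both PZT-2 libraries far under both PANC-1 libraries, and the log2 fold change was -1.64 ± 0.117 (edgeR adjusted p = 0.000441). By TPM it went from 168 ± 10.2 to 55.9 ± 9.33 (SD, n = 2). Its main transcript, NR_002196, made up 94.7% and 95.9% of H19 counts in PANC-1 and 90.1% and 87.9% in PZT-2. The second transcript, NR_131223, went from 165 and 114 to 105 and 102 normalized counts.

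IGF2, which codes for a growth factor and is the imprinted partner of H19 on chromosome 11, moved the other way. It had 155 and 174 normalized counts in PANC-1 and 403 and 357 in PZT-2, so its log2 fold change was 1.20 ± 0.119 (edgeR adjusted p = 0.00115). MRPL23, a mitochondrial ribosomal protein gene whose span meets that of H19, had a value of -0.09 and was not called. Allele-specific values were not measured.

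MIR22HG, the host of miR-22, had 201 and 166 normalized counts in PANC-1 and 236 and 273 in PZT-2. The libraries did not overlap, but the call was marginal: the log2 fold change was 0.48 ± 0.142 with an edgeR adjusted p of 0.0481, which ran from 0.0118 to 0.277 over the 14 alternatives and passed in 6 of them. It lost the call without PANC-1 replicate 2 and without either PZT-2 library. Of the coding genes on either side, WDR81 fell by 0.43 on the log2 scale (edgeR adjusted p = 0.00668) and TLCD2 had a value of 0.39 and was not called (adjusted p = 0.269).

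NEAT1, the architectural RNA of paraspeckles, had 1957 and 1415 normalized counts in PANC-1 and 2491 and 2047 in PZT-2. Its libraries did not overlap, yet its replicates spread widely, and the change of 0.43 ± 0.161 did not pass (edgeR adjusted p = 0.0930). The p ran from 0.000462 to 0.357 over the 14 alternatives and passed in 2 of them, 1 of which left out PANC-1 replicate 1. The short transcript NR_028272 took between 94.9% and 97.0% of NEAT1 counts, and the long transcript NR_131012, which contains the short one and builds the paraspeckle, took the remaining 2.98% to 5.05%. Reads from the shared part cannot be told apart, so this split is an estimate. The long form is known to lack a poly(A) tail, and these libraries were poly(A)-selected.

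Among paraspeckle protein genes, TAF15 rose by 0.38 on the log2 scale and NONO fell. NONO, whose protein binds NEAT1 directly, went from 9031 and 9053 to 5726 and 5698 normalized counts, a change of -0.66 ± 0.0456 (edgeR adjusted p = 0.000388). NONO is on the X chromosome, where the median over 471 tested genes was -0.29. Of 10 nuclear speckle protein genes 0 rose and 1, SRRM2, fell, by edgeR, with a value of -0.20. Most of these 10 lay above 500 normalized counts, where the background was 43.2% called.

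The lists also held genes of snoRNP assembly and of nonsense-mediated decay, the pathway that degrades many spliced host RNAs. Of 16 tested snoRNP genes NOP10, RUVBL1 and SHQ1 rose and FBL, DKC1, ZNHIT6 and RUVBL2 fell, with a median of 0.01 and a background of 28.4% called over all genes, or 43.2% from 500 normalized counts upward. FBL, the methyltransferase of C/D snoRNPs, changed by -0.24, and DKC1, the pseudouridine synthase of H/ACA snoRNPs, by -0.35. Of 14 decay genes UPF3B (-0.43) and the kinase gene SMG1 (-0.49) fell and 0 rose in edgeR, read against the same background. RUVBL1 and SHQ1 are on chromosome 3, where the median was 0.43, and NOP10 is on chromosome 15, where it was 0.24. DKC1 and UPF3B are on the X chromosome. FBL and RUVBL2 are on chromosome 19 (median -0.05), ZNHIT6 on chromosome 1 (-0.01) and SMG1 on chromosome 16 (0.00). These medians stand beside the single values, and their part was not tested.

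Of the 244 LINC genes tested 5 rose and 6 fell, against background shares of 14.7% and 13.7%. Their median log2 fold change was 0.10.

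LINC00888, named SNHG33 in RefSeq for the 3 snoRNA genes within its span, had the largest log2 fold change among the called LINC genes. It had 92.2 and 126 normalized counts in PANC-1 and 213 and 241 in PZT-2, and its log2 fold change was 1.05 ± 0.173 (edgeR adjusted p = 0.00636). It lies on chromosome 3, and its coding neighbor MCF2L2 rose by 2.11 ± 0.268, from 17.7 ± 4.35 to 77.8 ± 3.79 normalized counts (SD, n = 2). KLHL6 on the other side had means of 8.90 and 7.01 normalized counts and was not called.

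LINC00667 and LINC01588 also rose without overlap between the lines. LINC00667 had 307 and 312 normalized counts in PANC-1 and 472 and 507 in PZT-2, a change of 0.66 ± 0.0882 (edgeR adjusted p = 0.00306). LINC01588, with a lower level, had 38.2 and 42.5 against 79.5 and 81.1, a change of 0.99 ± 0.204 (edgeR adjusted p = 0.0141). The replicates of each line agreed closely for both, and LINC01588 still lost the call without either PZT-2 library, with an adjusted p from 0.00712 to 0.130 over the 14 alternatives.

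LINC00205 and LINC00941 rose by less. LINC00205 had 613 and 555 normalized counts in PANC-1 and 839 and 768 in PZT-2, a change of 0.46 ± 0.0867 (edgeR adjusted p = 0.00995). LINC00941 had 216 and 227 against 290 and 317, a change of 0.45 ± 0.106 (edgeR adjusted p = 0.0216). LINC00205 lost the call without PZT-2 replicate 1 and LINC00941 without either PZT-2 library, and their adjusted p ran from 0.00236 to 0.0635 and from 0.0177 to 0.144 over the 14 alternatives. Next to them POFUT2, an O-fucosyltransferase gene, rose by 0.58 and CAPRIN2 by 0.43.

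LINC01116 and LINC01843 fell the most among the LINC genes called. LINC01116 on chromosome 2 had 163 and 145 normalized counts in PANC-1 and 42.2 and 55.4 in PZT-2, a change of -1.65 ± 0.189 (edgeR adjusted p = 0.00187). LINC01843 on chromosome 5 had 245 and 201 against 101 and 81.0, a change of -1.29 ± 0.170 (edgeR adjusted p = 0.00292). For both, the 2 PANC-1 libraries lay far above the 2 PZT-2 libraries. The flanking coding genes MTX2 and HNRNPA3 of LINC01116 were not called (-0.05 and -0.14), while CDKN2AIPNL and JADE2 beside LINC01843 both fell, by 0.38 on the log2 scale.

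LINC00261, an RNA transcribed beside FOXA2, the gene of an endoderm transcription factor, had 139 and 169 normalized counts in PANC-1 and 93.6 and 80.1 in PZT-2. Its change of -0.83 ± 0.169 passed (edgeR adjusted p = 0.0133), and FOXA2 fell with it, from 822 ± 23.9 to 653 ± 5.96 normalized counts (SD, n = 2; -0.33, adjusted p = 0.0145). LINC00261 lost the call without PZT-2 replicate 2, and its adjusted p ran from 0.00294 to 0.0908 over the 14 alternatives.

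LINC00174 and LINC00982 also fell. LINC00174 had 83.2 and 83.1 normalized counts in PANC-1 and 45.3 and 43.5 in PZT-2, a change of -0.90 ± 0.193 (edgeR adjusted p = 0.0159). LINC00982, the divergent transcript of PRDM16 and named here after its values were seen, had 60.7 and 45.2 against 30.2 and 21.7, a change of -1.02 ± 0.306 (edgeR adjusted p = 0.0499). PRDM16, a zinc finger gene, fell beside it by 0.78 on the log2 scale. LINC00174 lost the call without either PZT-2 library, with an adjusted p from 0.00891 to 0.0930 over the 14 alternatives. LINC00982 lost it without PANC-1 replicate 1 or either PZT-2 library, with a range of 0.0137 to 0.221.

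LINC01184, the divergent transcript of SLC12A2, depended on which transcripts were counted. Summed over 9 transcripts it had 301 and 294 normalized counts in PANC-1 and 191 and 205 in PZT-2, a change of -0.59 ± 0.104 (edgeR adjusted p = 0.00806), and SLC12A2, a sodium, potassium and chloride cotransporter gene, changed by -0.59 as well. Only NR_152804 carries the symbol in the deposited table, and that transcript alone gave 0.21 with no call, so the direction reversed. The other 8 transcripts were assigned to it by accession. Its adjusted p ran from 0.00590 to 0.936 over the 14 alternatives, and it also lost the call without PZT-2 replicate 1.

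**Figure D4:**
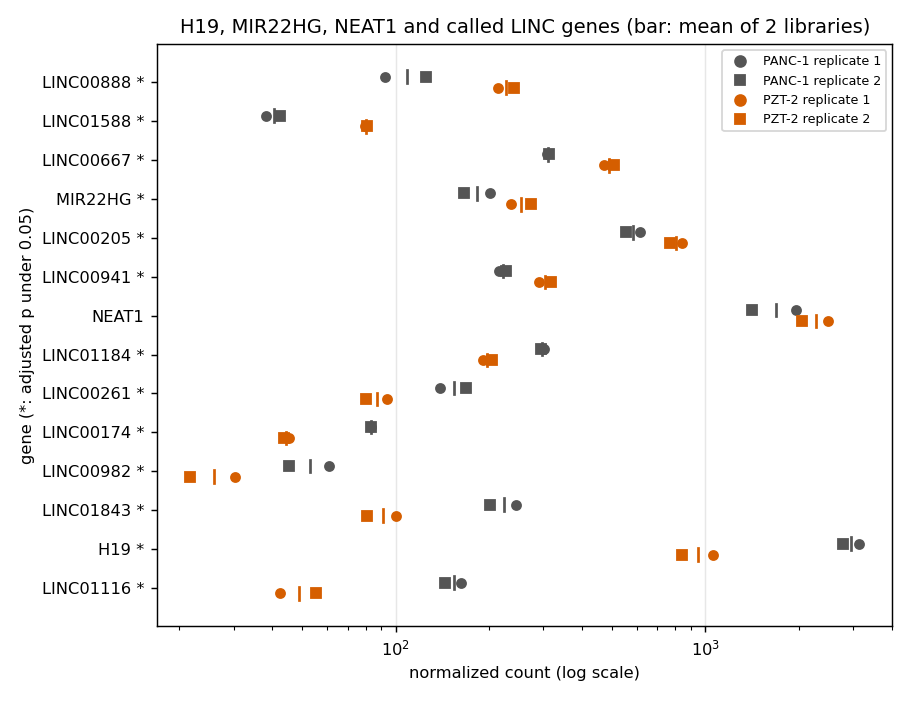
Normalized counts (log axis) of H19, MIR22HG, NEAT1 and the 11 called LINC genes in each library, grey for PANC-1 and orange for PZT-2, ordered by log2 fold change, with bars at the mean of 2 libraries and an asterisk for an adjusted p under 0.05. LINC00888 at the top rose from 92.2 and 126 to 213 and 241, LINC01116 at the bottom fell from 163 and 145 to 42.2 and 55.4, and NEAT1 carries no asterisk.

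Of the 8 LINC genes most abundant by TPM, LINC01843, LINC00941 and LINC01184 were called. These 8 lie above 100 normalized counts, where the background was 29.2% called from 100 to 500 and 43.2% from 500 upward. Over all levels it was 28.4% of the genes tested. The share over the LINC genes tested was 4.51%, but their median was only 10.2 normalized counts. LINC02043 (47.5 TPM over the 4 libraries) had a log2 fold change of -0.28 and LINC01578 one of 0.20, with libraries that did not overlap and edgeR adjusted p of 0.0737 and 0.203. LINC01578 is CHASERR in RefSeq, an RNA known to lower the expression of CHD2, the chromatin remodeler gene next to it, and CHD2 rose by 0.43 (edgeR adjusted p = 0.0154). LINC00339, LINC00665 and LINC01123 had values of -0.16, -0.21 and -0.29 and did not pass. LINC01843, LINC00941 and LINC01184 complete the 8 highest and are described above.

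Called LINC genes and their flanking coding genes were also compared. The 11 called LINC genes had 22 flanking coding genes in RefSeq, of which 18 were tested, 8 were called in the direction of the LINC gene and 0 in the opposite direction by edgeR. For the 5 that rose it was 3 of 9 flanking genes tested, and for the 6 that fell it was 5 of 9, read against the background shares of 14.7% and 13.7%. No test was made of this count. Several of these flanking genes, among them POFUT2, CDKN2AIPNL, JADE2 and FOXA2, lay above 500 normalized counts. At that level the background was 43.2% called in either direction. Also counted is SLC12A2 beside LINC01184, whose own direction depended on which transcripts were counted. H19 with IGF2 and MIR22HG with WDR81 showed opposite directions, while TLCD2 on the other side of MIR22HG was not called. Of all 272 members, 131 have a span that overlaps another annotated gene, and the strand setting used for counting is not given in the sources used here, so reads of overlapping genes may be mixed.

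**Figure D5:**
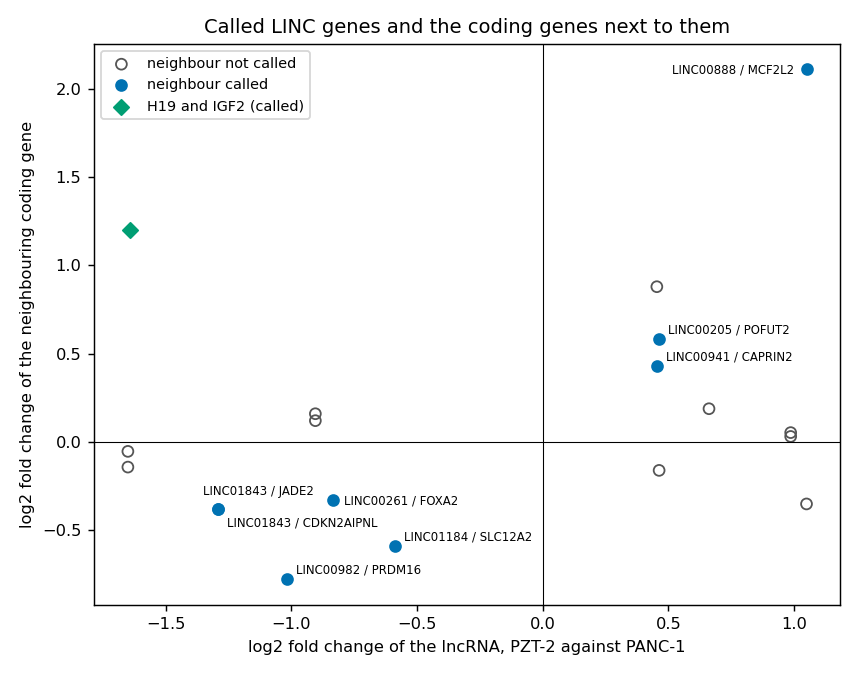
Log2 fold change of 18 coding genes against that of the called LINC gene they flank, in PZT-2 against PANC-1, with filled points for coding genes called by edgeR and a diamond for H19 and IGF2. The 8 filled points lie at the lower left and upper right, and the diamond lies in the upper left at -1.64 and 1.20.

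Chromosomes differed in their typical change. Chromosome 3 had a median log2 fold change of 0.43 over 833 tested genes and 0.34 over its 16 tested members, of which LINC00888 alone was called. The X chromosome had a median of -0.29 over all its tested genes and 0.19 over 11 tested members, none of which was called by edgeR. The part of these chromosome medians in the values of single members was not tested.

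The count of called members moved with single libraries. Without PANC-1 replicate 1 or 2 it was 24 in each case, and without PZT-2 replicate 1 or 2 it was 10 and 9, while the background moved to 31.5%, 31.4%, 15.6% and 12.6%. GAS5, H19, LINC00888, LINC00667, LINC01116 and LINC01843 passed in each of the 14 alternatives, which leave out the 2-fold minimum. LINC00667, at 0.66, did not reach that minimum.

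Long noncoding RNAs of other names were listed for comparison. Of 23 tested from a list of 29, ZFAS1 (0.47), CYTOR (1.23), MEG3 (0.34) and LUCAT1 (1.34) rose and DANCR (-0.81), TUG1 (-1.03), NORAD (-0.30) and DLEU1 (-0.44) fell, with a median of -0.08 and a background of 14.7% higher and 13.7% lower. ZFAS1 and DANCR are themselves snoRNA hosts under other names, so hosts outside the SNHG series moved both ways. ZFAS1 had 699.6 and 584 normalized counts in PANC-1 and 872 and 895 in PZT-2, and DANCR had 301 and 322 against 172 and 185.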

How the data were processed

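Analysed were 4 RNA-seq libraries, 2 of PANC-1 and 2 of PZT-2. After trimming by Trim Galore 0.4.1, the authors quantified RefSeq transcripts in kallisto 0.43.0 and tested the lines in sleuth 0.29.0, and per the labels the build is hg19. The deposited table holds estimated counts per transcript and effective lengths. The fold changes and p-values deposited from sleuth were not used. Each library's estimated counts carried a factor (1.16, 0.935, 1.03 and 1.01 for PANC-1 and PZT-2 replicates 1 and 2), which was undone: between 49.0% and 49.8% of values from 0.5 to 30 then lay within 0.01 of a whole number, against 0.635% to 2.71% as deposited. TPM was recomputed from these counts and the effective lengths.

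Counts were rounded and summed over 31077 transcripts into 15220 genes, by table symbol (27049), or by RefSeq accession (3925), which added 48 transcripts to 19 members, and 103 stayed unnamed (0.0466% of counts). The members and lists were chosen with earlier results of these data known, and some genes are not reported here. Genes reaching 5 counts in 2 or more libraries were tested with edgeR 4.0.16 (TMM, quasi-likelihood) in R 4.3.3, adjusted over all 15100 genes by Benjamini-Hochberg. The smallest p of an exact permutation test on 2 against 2 libraries is 0.333. Errors are SD over 2 libraries or SE of the fit. Replicate numbers did not pair the libraries (r of deviations -0.0237). On simulated counts of 14856 genes, 98 changed 2-fold and 98 changed 4-fold. Of these 65.3% and 84.7% were called, with 20 false among 167 calls. The data held a far larger share of called genes (28.4%), and recovery at such a share was not simulated.

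Named were H19, MIR22HG, NEAT1, GAS5 and each SNHG gene tested, called LINC genes that average 50 or more normalized counts and do not overlap (up to 8 per direction), and the 8 LINC genes of highest TPM. Of the members, 268 matched a RefSeq gene of GRCh38.p14, from which neighbors, spans and sequences come. Alternatives were RLE factors, DESeq2 1.42.0, other filters, limma-trend (3.58.1) on log2(TPM + 1) and log2(TPM + 0.1), a 2-fold minimum and a replicate block. Others were single libraries left out, counts as deposited, table symbols alone and the most abundant transcript alone. The 14 alternatives counted for single genes leave out the 2-fold minimum.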

Additional observations from a re-analysis of the deposited data

How the results depend on the processing

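The 10 members called higher became 6 with DESeq2, 17 with limma-trend on log2(TPM + 1), 2 with a 2-fold minimum and 5 with the most abundant transcript alone, and ran from 4 to 16 when single libraries were left out. The 7 called lower became 4 with the 2-fold minimum and 3 with the most abundant transcript, and ran from 4 to 10 with single libraries left out. The 4289 calls over all genes became 837 and 2124 under those settings and ran from 1866 to 4690 without single libraries. DESeq2 gave 11 called members, all among the 17, with an adjusted p for 129 members, at a background of 24.1%.

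The replicate block called 18 members, of which 15 were among the 17. It added LINC00847, NEAT1 and SNHG1 and lost LINC00982 and MIR22HG, at 3706 calls over all genes. The replicate numbers did not pair the libraries.

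Reversed directions were small except for LINC01184 (0.21 with table symbols alone and 0.10 with the most abundant transcript) and SNHG21 (-0.37 to 0.39 with single libraries left out). The others were SNHG11 (0.018 on log2(TPM + 1), 0.019 on log2(TPM + 0.1) and -0.13 to 0.047 with single libraries left out), SNHG12 (-0.061 with the most abundant transcript), SNHG4 (-0.14 to 0.21 with single libraries left out) and SNHG8 (-0.0055 with the most abundant transcript and -0.036 to 0.19 with single libraries left out). The cause was not tested. Of the other values of named members under alternatives, 479 kept direction and side of the threshold, 54 lost the call and 12 gained it. Depth limits precision for the 172 of 265 tested members under 20 normalized counts.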
